A study of Mus musculus with 12 samples.

Results

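Chromatin accessibility was described at 7 mouse genes of the interleukin 1 family and of the inflammasome: Il1a, Il1b, Il1rn, Il18, Nlrp3, Casp1 and Pycard. The members were the open chromatin regions that overlapped the body of one of these genes extended by 20 kb on each side, and they numbered 47 of the 121336 regions in the count table. Il18 held 12 of them, Nlrp3 9, Il1a 7, Il1rn 6, Il1b and Pycard 5 each and Casp1 3. The window was set by position alone, and all 47 regions passed the filter on low counts. Of the 47, 8 lay within 500 bp of a start site of a member gene, 9 lay at a start site of another gene only and 30 lay at no annotated start site. A region is named here by its gene and by the distance of its midpoint from the outermost start site of that gene, in the direction of transcription, so that Il1b -2.4 kb lies upstream.

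The libraries were made by ATAC-seq, in which the transposase Tn5 cuts and tags DNA where chromatin is open. Sorted bone marrow cells came from wild-type (WT) mice and from mice of the genotype UREd/d, which lack an upstream enhancer (URE) of Spi1, the gene of the transcription factor PU.1, in the germline and therefore in every cell. Per the study's methods the mice were littermates on a C57BL/6 background, 8 to 12 weeks old and preleukemic, with 3 mice per genotype and cell type. LSK cells were sorted as Lin- Sca-1+ c-Kit+ and hold stem cells and early progenitors. GMP were sorted as Lin- Sca-1- c-Kit+ CD16/32+ granulocyte-monocyte progenitors. The groups of WT-LSK and URE-LSK cells, and those of WT-GMP and URE-GMP, had n = 3 libraries each, 4 groups in all, and no other allele or treatment was named in the labels.

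Il1a and Il1b encode the agonists IL-1α and IL-1β, which signal through the IL-1 receptor, and Il1rn encodes the antagonist that occupies this receptor without signalling. IL-1β and IL-18 are made as inactive precursors. The sensor NLRP3 assembles with the adaptor ASC, the product of Pycard, and with the protease caspase-1 into the inflammasome, and caspase-1 then cleaves both precursors into active cytokines. In bone marrow these genes are known chiefly from monocytes, macrophages and neutrophils, and IL-1 is known to drive stem cells toward myeloid output.

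The libraries held between 23072701 and 62204826 counts, so that 3 counts in a library stood for 0.0520 to 0.126 CPM, the count relative to the TMM-scaled library total. The start-site regions of the GMP markers Mpo, Elane, Ctsg, Prtn3 and Ms4a3 were called higher in GMP than in LSK cells in both genotypes, whereas the LSK markers Hlf, Mecom and Procr were called in neither direction and Ly6a and Fcgr3, which define the gates, had no region. Regions of the Y chromosome held 653 to 1684 counts in replicate 1 of WT and replicates 1 and 3 of UREd/d and 0 to 9 counts in the others, in both cell types. This signal was therefore unevenly spread over the genotypes, and counts from a fit with it as a term are given beside the main counts.

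Sequences are shown for 7 regions chosen by hand among those called lower in LSK cells. They were read from the RefSeq copy of GRCm38 on the strand of the gene, 5′ to 3′. Other regions with large changes, such as the Il1b start site and Il18 +10.6 kb, are not shown. Where a region was longer than 300 bases, the stretch of 300 bases with the most motif matches is shown, and the most central one among ties. Capitals mark matches, on either strand, to short motifs: PU.1 (GAGGAAGT), RUNX (AACCACA), CEBP (TTGCNNAA), PU.1/IRF (GAANNGAAA), AP-1 (TGANTCA) and NF-kB (GGGANTTTC), where N is any base. The first is the Il1b region of highest accessibility in LSK cells of WT mice, 300 of its 570 bases, and the next pair are the Il1b regions that were low in both cell types of UREd/d mice, shown whole.
Il1b -2.4 kb (chr2:129373354-129373653, GRCm38, minus strand): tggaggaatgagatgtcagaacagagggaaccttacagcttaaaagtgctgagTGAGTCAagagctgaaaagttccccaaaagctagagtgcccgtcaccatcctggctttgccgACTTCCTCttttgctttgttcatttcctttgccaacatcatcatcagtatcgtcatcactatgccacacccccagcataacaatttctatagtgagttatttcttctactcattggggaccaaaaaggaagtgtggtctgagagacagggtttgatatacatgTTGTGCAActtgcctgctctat
Il1b -9.3 kb (chr2:129380284-129380537, GRCm38, minus strand): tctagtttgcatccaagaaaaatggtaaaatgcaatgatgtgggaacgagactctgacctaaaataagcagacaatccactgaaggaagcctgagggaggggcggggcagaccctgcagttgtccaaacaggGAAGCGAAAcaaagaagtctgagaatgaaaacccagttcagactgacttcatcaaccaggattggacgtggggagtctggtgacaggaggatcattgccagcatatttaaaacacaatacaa
Il1b -9.8 kb (chr2:129380792-129381067, GRCm38, minus strand): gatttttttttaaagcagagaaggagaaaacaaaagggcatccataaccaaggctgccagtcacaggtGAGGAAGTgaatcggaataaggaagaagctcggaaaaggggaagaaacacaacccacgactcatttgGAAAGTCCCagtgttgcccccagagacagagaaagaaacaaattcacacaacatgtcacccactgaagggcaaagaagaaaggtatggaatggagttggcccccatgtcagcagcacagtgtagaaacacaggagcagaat
The pair upstream of Il1a is shown because one region was low in UREd/d LSK cells only and the other in both cell types.
Il1a -4.2 kb (chr2:129313990-129314289, GRCm38, minus strand): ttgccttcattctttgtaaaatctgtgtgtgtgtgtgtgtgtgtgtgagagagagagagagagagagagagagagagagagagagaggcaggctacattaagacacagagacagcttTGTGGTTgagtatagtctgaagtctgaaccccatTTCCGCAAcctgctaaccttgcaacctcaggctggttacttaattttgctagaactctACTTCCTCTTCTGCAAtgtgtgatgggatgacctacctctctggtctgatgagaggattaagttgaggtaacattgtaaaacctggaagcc
Il1a -10.2 kb (chr2:129320014-129320313, GRCm38, minus strand): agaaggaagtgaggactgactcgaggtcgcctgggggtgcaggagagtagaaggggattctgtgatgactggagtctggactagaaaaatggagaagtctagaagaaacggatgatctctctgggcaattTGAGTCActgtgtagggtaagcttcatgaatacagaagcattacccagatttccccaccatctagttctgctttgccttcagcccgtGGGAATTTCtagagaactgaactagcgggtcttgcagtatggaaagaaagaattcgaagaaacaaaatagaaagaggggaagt
Of the Il18 regions that were low in both cell types, 1 upstream of the gene and 1 within it are shown.
Il18 -6.7 kb (chr9:50547963-50548262, GRCm38, plus strand): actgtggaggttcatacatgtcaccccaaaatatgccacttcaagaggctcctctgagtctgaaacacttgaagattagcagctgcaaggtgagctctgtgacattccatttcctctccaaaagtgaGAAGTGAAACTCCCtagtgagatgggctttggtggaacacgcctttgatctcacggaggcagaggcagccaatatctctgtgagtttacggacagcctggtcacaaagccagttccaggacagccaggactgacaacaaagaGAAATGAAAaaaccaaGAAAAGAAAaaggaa
Il18 +12.8 kb (chr9:50567466-50567765, GRCm38, plus strand): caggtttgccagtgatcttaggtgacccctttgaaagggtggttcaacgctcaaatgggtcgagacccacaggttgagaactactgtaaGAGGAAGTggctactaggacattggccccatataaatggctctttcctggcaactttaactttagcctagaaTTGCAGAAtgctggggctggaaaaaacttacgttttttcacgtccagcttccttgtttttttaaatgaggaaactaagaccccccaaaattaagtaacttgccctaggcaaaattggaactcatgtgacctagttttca
The Il1b -2.4 kb stretch held an AP-1 match at bases 54 to 60, a PU.1 match at bases 116 to 123 and a CEBP match at bases 279 to 286. In the Il1b -9.8 kb region a PU.1 match at bases 69 to 76 stood upstream of an NF-kB match at bases 136 to 144. In the Il1a -4.2 kb stretch a PU.1 match and a CEBP match abutted at bases 210 to 225. The NF-kB match of the Il18 -6.7 kb stretch overlapped a PU.1/IRF match. The PU.1/IRF pattern asks for GAA and not for the GGAA that the PU.1 motif holds. None of the PU.1/IRF matches of this Il18 stretch has a G before GAA. Matches to this pattern therefore need not be composite sites of both factors. A match is a description of the letters and does not show that a factor was bound.

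Loss of the URE was compared first within each cell type. In LSK cells 19 of the 47 regions (40.4%) were lower in UREd/d mice and 3 (6.38%) were higher, against 23.9% lower and 13.6% higher among all regions (edgeR quasi-likelihood test, Benjamini-Hochberg adjusted p under 0.05 and a log2 fold change beyond 1 in size). In GMP 11 regions (23.4%) were lower and 5 (10.6%) were higher, against 24.1% and 15.6% of all regions, which is close to the background for the lower calls. The median log2 fold change of the members was -0.55 in LSK cells and -0.07 in GMP, and that of all regions was 0.14 and 0.06. In sorted populations, fewer cells that carry an open site and less accessibility per cell cannot be told apart. The lower calls in LSK cells fell on Il18 (6), Il1b (5), Il1a (4), Nlrp3 (3) and Il1rn (1), and Casp1 and Pycard had no call in either direction there.

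The split into higher and lower calls moved with the scaling. Offsets fitted on the GC content of the regions gave 9 higher and 17 lower members in LSK cells and 10 and 9 in GMP, and offsets fitted on abundance gave 7 and 18 in LSK cells and 8 and 8 in GMP. The GC offsets moved the median of all regions to 0.28 in LSK cells and to 0.20 in GMP. Over all regions, the main fit had 16501 of 45536 calls higher in LSK cells and 18974 of 48159 in GMP. The GC offsets made these 26621 of 51411 and 26504 of 50691. The abundance offsets made them 25686 of 48893 and 26082 of 47822, so the split of the whole table moved as well. With the Y chromosome signal as a term, 19 members were lower and 2 higher in LSK cells and 11 were lower and 5 higher in GMP. Over all regions, 15898 of 44313 calls were then higher in LSK cells and 18662 of 47092 in GMP.

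Every UREd/d library lay below every WT library at 21 members (44.7%) in LSK cells and 18 (38.3%) in GMP, against 31.5% and 32.1% of all regions. These included the 19 and 11 members called lower, so that 2 in LSK cells and 7 in GMP were ordered in this way without a call. Every UREd/d library lay above every WT library at 10 members (21.3%) in LSK cells, 7 of them uncalled, and at 14 (29.8%) in GMP, 9 of them uncalled, against 35.3% and 33.3% of all regions. The regions sorted into classes by their calls: 10 were lower in both cell types, 9 were lower in LSK cells only, 3 were higher in both, 2 were higher in GMP only, 1 was lower in GMP only, and 22 were called in neither. The call in 1 cell type alone does not show a difference between cell types, which was therefore tested as the interaction, that is, the log2 fold change of GMP less the one of LSK cells. The interaction was called in 8 of the 9 regions that were lower in LSK cells only, the exception being Il1rn -1.3 kb. It was called in 1 of the 10 that were lower in both. Sorting by calls in LSK cells only favours a called interaction, since both use the same libraries. The shares of these classes among all regions were not counted, so the class counts only describe the members.

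**Figure D1:**
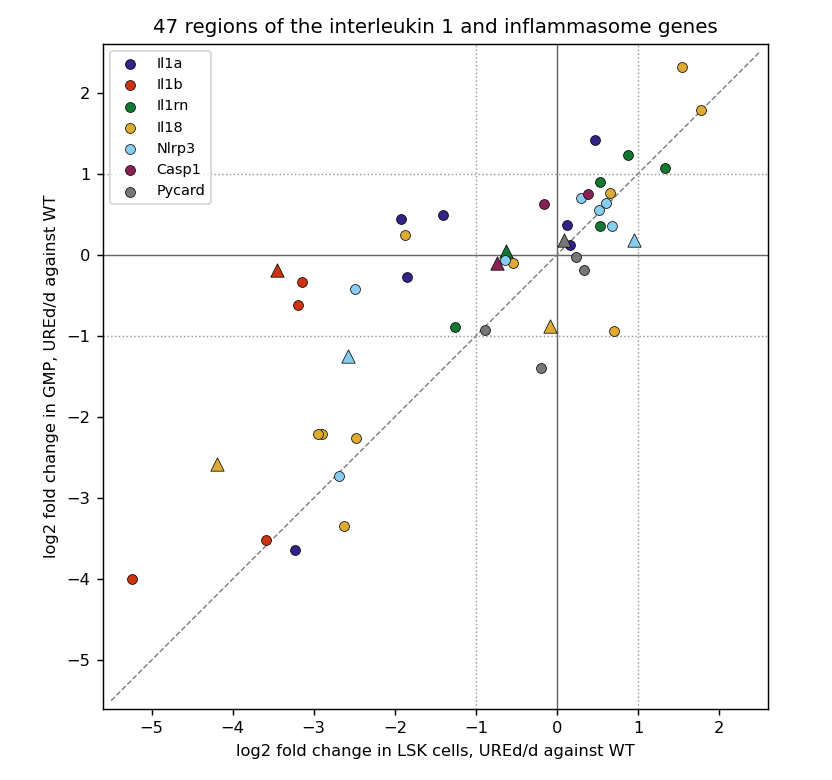
Log2 fold change of UREd/d against WT in LSK cells (x axis) and in GMP (y axis) for the 47 regions, coloured by gene. Triangles mark regions at a start site of their own gene, dotted lines mark a log2 fold change of 1 in either direction and the dashed line marks equal change. Of the regions at the left, 10 lie low on both axes and 9 lie low on the x axis only, among them the Il1b start site.

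Il1b encodes IL-1β, the agonist that inflammasomes release. All of its 5 regions were lower in URE-LSK than in WT-LSK, with log2 fold changes between -5.24 and -3.14, and they fell into a pair that was also lower in GMP and a set of 3 that was not. The region of highest accessibility in WT-LSK was Il1b -2.4 kb, within an exon of the antisense RNA gene Il1bos. It held 21.8, 26.0 and 22.2 CPM in WT-LSK against 1.76, 3.41 and 2.78 for URE-LSK, while the WT-GMP libraries held 25.4, 25.7 and 25.5 CPM and those of URE-GMP 20.9, 23.2 and 16.8. The URE-LSK libraries thus lay far below all the others, and the WT libraries of both cell types stood at one level. The log2 fold change was -3.14 ± 0.19 (SE) in LSK cells (edgeR adjusted p = 5.48e-09) and -0.33 ± 0.17 in GMP (adjusted p = 0.0976), and their difference was 2.81 ± 0.25 (interaction adjusted p = 8.86e-06). In GMP the value turned to 0.13 with GC offsets, and the region was called there in none of the 24 fits with other settings or without 1 library.

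The start site of Il1b lay in a small region of 282 bp (chr2:129371025-129371306). Its accessibility was 1.52, 1.39 and 1.13 CPM in WT-LSK against 0.0476, 0.112 and 0.192 for URE-LSK, while the WT-GMP libraries held 4.10, 3.63 and 2.40 CPM and those of URE-GMP 3.01, 3.47 and 2.33. The groups did not overlap in LSK cells and overlapped in GMP. The 3 URE-LSK libraries held 15 counts together against 148 in WT-LSK, a ratio of 0.0913 after scaling with a 95% exact interval of 0.0499 to 0.156 that covers counting error only. The log2 fold change was -3.45 ± 0.40 in LSK cells (edgeR adjusted p = 2.35e-06) and -0.19 ± 0.27 in GMP (adjusted p = 0.563), with an interaction of 3.26 ± 0.49 (adjusted p = 0.00044), the largest of the 47. The value in GMP was 0.40 with abundance offsets and 0.22 with GC offsets. The log2 difference of GMP from LSK cells at this start site was 4.59 ± 0.38 in UREd/d mice and 1.32 ± 0.29 in WT mice.

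Downstream of Il1b, the region at +10.7 kb (chr2:129359975-129360982) followed the same order. It rose from 4.22 ± 0.763 CPM (SD, n = 3) in WT-LSK to 25.4 ± 4.78 in WT-GMP, and from 0.467 ± 0.112 in URE-LSK to 16.5 ± 3.46 in URE-GMP. In GMP its libraries did not overlap between genotypes, but the change of -0.62 ± 0.19 (edgeR adjusted p = 0.00966) was smaller than the threshold of 1. The interaction was 2.57 ± 0.32 (adjusted p = 0.000107).

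The upstream pair of Il1b regions behaved otherwise. Il1b -9.8 kb held 1.23, 1.47 and 1.31 CPM in WT-LSK against 0.0238, 0.0558 and 0.0214 for URE-LSK, while the WT-GMP libraries held 6.19, 5.25 and 3.20 CPM and those of URE-GMP 0.344, 0.347 and 0.194. Both UREd/d groups lay below both WT groups without overlap. The URE-LSK libraries together held 4 counts and the WT-LSK libraries 148, a ratio of 0.0244 with an interval of 0.00655 to 0.0637, so the fitted log2 fold change of -5.24 rests on very few counts. In GMP the log2 fold change was -4.00 ± 0.32 (edgeR adjusted p = 1.01e-07). Its neighbour at -9.3 kb (chr2:129380284-129380537) fell from 5.88 ± 0.566 to 0.487 ± 0.493 CPM in GMP and from 0.931 ± 0.395 to 0.0701 ± 0.0321 in LSK cells. The interaction was called at neither of them, at 1.24 ± 0.67 (edgeR adjusted p = 0.227) for -9.8 kb and 0.08 ± 0.59 (adjusted p = 0.952) for -9.3 kb. At the Il1b locus the genotype change of LSK cells was thus also called in GMP at the distal pair and was not called there at the other 3 regions.

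**Figure D2:**
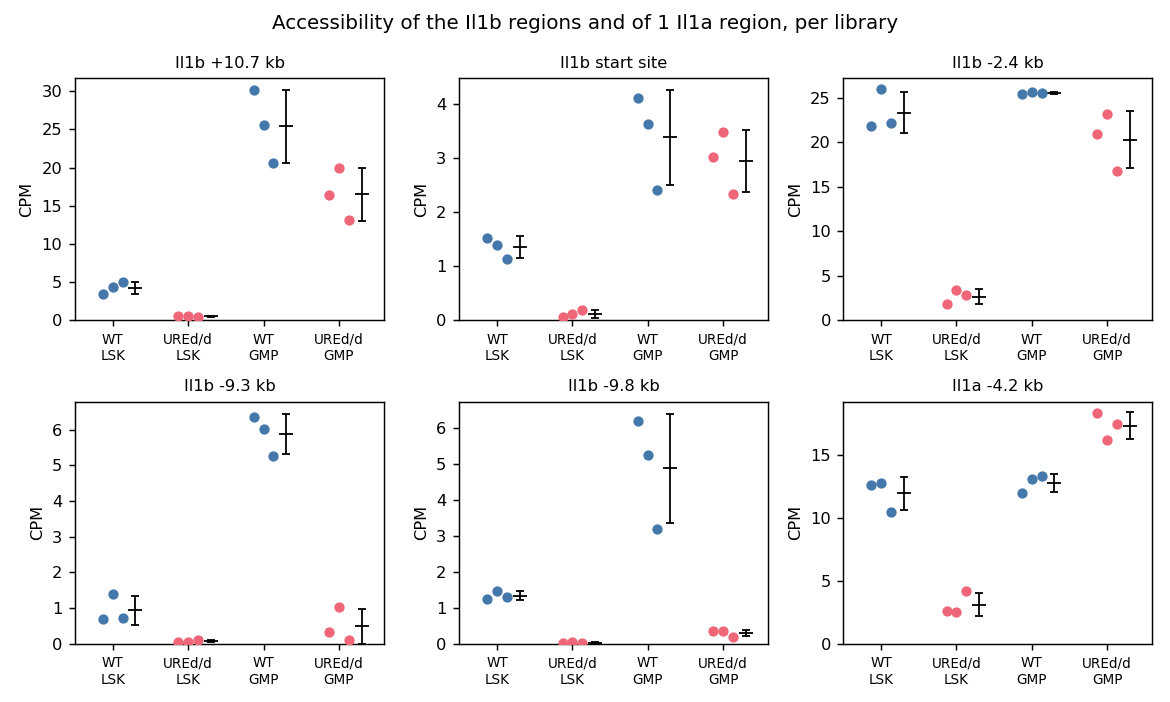
Accessibility in CPM (y axis, from 0) of the 5 Il1b regions and of Il1a -4.2 kb in each of the 12 libraries (points), with the mean and SD of 3 libraries beside them, WT in blue and UREd/d in red. The URE-LSK libraries lie below all WT libraries in each panel, and the URE-GMP libraries reach the level of WT-GMP at the start site but not at -9.3 and -9.8 kb.

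Il1a, the gene of IL-1α, lies beside Il1b on chromosome 2 on the same strand, 54.6 kb from it. No region lay at its own start site. Its region of most counts, +12.6 kb, belonged to the start sites of Ckap2l and Gm14023 and stood at 54.8 to 63.7 CPM on average in all 4 groups, with no call in any comparison. Of the other 6 regions, 4 were lower in URE-LSK.

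Il1a -4.2 kb (chr2:129313938-129314342) held 12.6, 12.8 and 10.5 CPM in WT-LSK and 2.62, 2.51 and 4.21 in URE-LSK. Among GMP, WT libraries held 11.96, 13.1 and 13.3 CPM and UREd/d libraries 18.3, 16.2 and 17.5. The UREd/d libraries were thus all below WT in LSK cells and all above WT in GMP, although the latter change of 0.44 ± 0.17 (edgeR adjusted p = 0.0356) was below the fold threshold. The log2 fold change in LSK cells was -1.93 ± 0.18 (adjusted p = 2.73e-07), and the interaction of 2.36 ± 0.25 (adjusted p = 3.02e-05) had the smallest p of the 47 after Il1b -2.4 kb. The region at -6.0 kb, at a start site of Gm25703, showed the same crossing, with averages of 2.92 and 1.09 CPM for the WT and UREd/d libraries of LSK cells, 5.999 and 8.36 CPM for those of GMP, and an interaction of 1.89 ± 0.31. With GC offsets its call in LSK cells was lost, the change going from -1.40 to -0.99.

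Il1a -18.5 kb was lower in URE-LSK, with a log2 fold change of -1.85 ± 0.35 (edgeR adjusted p = 0.000273), and stood at 4.98 ± 1.08 CPM in WT-GMP, against 4.14 ± 0.264 for URE-GMP. Its interaction of 1.58 ± 0.42 (edgeR adjusted p = 0.0167) was no longer called without URE-LSK replicate 1, where it was 1.24 with adjusted p = 0.0568. Il1a -10.2 kb (chr2:129319948-129320379) was the Il1a region that was low in both cell types. It held 3.85, 3.92 and 2.21 CPM in WT-GMP against 0.215, 0.486 and 0.0485 in URE-GMP, and 1.02, 0.734 and 0.804 in WT-LSK against 0.0714, 0.140 and 0.0641 in URE-LSK. The log2 fold changes were -3.64 ± 0.47 in GMP (adjusted p = 7.32e-06) and -3.23 ± 0.59 in LSK cells (adjusted p = 0.000225). Il1a +13.7 kb, in an intron of Ckap2l, was higher in URE-GMP (1.41 ± 0.40, edgeR adjusted p = 0.00601), from 0.677 to 1.81 CPM on average.

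Of the 6 regions of Il1rn, the receptor antagonist, 1 was lower and 1 higher in URE-LSK, 2 were higher in URE-GMP, and 3 were higher in GMP than in LSK cells in each genotype. The region at an annotated start site 8.4 kb into the gene (chr2:24345116-24345463) held 0.604, 0.857 and 0.603 CPM in WT-LSK against 0.357, 0.223 and 0.684 for URE-LSK, while the WT-GMP libraries held 7.91, 7.68 and 5.62 CPM and those of URE-GMP 7.51, 7.88 and 6.52. The genotypes overlapped in each cell type, and GMP lay above LSK cells in every library. The rise from LSK cells to GMP was 3.39 ± 0.29 in WT (edgeR adjusted p = 2.6e-07) and 4.07 ± 0.30 in UREd/d mice (adjusted p = 1.82e-08). The genotype change in LSK cells was -0.63 ± 0.34 (adjusted p = 0.127), and without URE-LSK replicate 3, the highest of that group, it was -1.18 with adjusted p = 0.00939 and the interaction rose from 0.68 to 1.23 with adjusted p = 0.0454. Both were then called.

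Il1rn -18.6 kb was the sole Il1rn region called higher in UREd/d mice in both cell types, at 0.566 against 0.229 CPM in LSK cells and 6.98 against 3.34 in GMP. In LSK cells these means stood for 72 and 25 counts, and the call of 1.34 ± 0.46 (edgeR adjusted p = 0.0202) was lost without WT-LSK replicate 3 (1.10, adjusted p = 0.101) or without URE-LSK replicate 3 (1.07, adjusted p = 0.0942). In GMP the change of 1.07 ± 0.29 fell to 0.74 without WT-GMP replicate 3 and to 0.96 without URE-GMP replicate 2, below the fold threshold, and it was 0.95 when scaled by library size and 0.94 by TMM on promoters. The region at -1.3 kb was lower in URE-LSK (-1.25 ± 0.23, adjusted p = 0.000198), a call that was lost with GC offsets, alone (-0.83) and with the replicate block (-0.81). Its change in GMP of -0.89 ± 0.23 did not pass the fold threshold, but was -1.03 and called without URE-GMP replicate 1, and it was also called when scaled by library size (-1.004) or by TMM on promoters (-1.02). Il1rn +27.1 kb was higher in URE-GMP (1.23 ± 0.22, adjusted p = 0.000151), at 4.46 ± 0.403 against 1.89 ± 0.216 CPM, and its change in LSK cells of 0.87 ± 0.21 was not called except with GC offsets (1.35). The +30.2 kb region at the start site of Psd4 stood at 29.5 and 42.5 CPM in WT-LSK and URE-LSK, a difference of 0.53 ± 0.09 that was likewise not called.

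Il18 encodes a cytokine of the same family that is made by myeloid and epithelial cells. Its windows held the most members, and 5 of the 12 regions were lower in both cell types. The outermost start site, shared with Bco2, lay in the +0.2 kb region (chr9:50554651-50555307), which held 15.9, 15.5 and 16.1 CPM in WT-LSK against 17.04, 14.7 and 13.1 for URE-LSK, while the WT-GMP libraries held 13.2, 13.2 and 14.3 CPM and those of URE-GMP 7.45, 7.88 and 6.86. The genotypes overlapped in LSK cells and were apart in GMP. The change in GMP of -0.88 ± 0.13 (edgeR adjusted p = 2.6e-05) missed the fold threshold, and with TMM fitted on promoter regions it was -1.02 and was called. In LSK cells it was -0.08 ± 0.13, and 0.33 with GC offsets.

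A second annotated start site of Il18 at +10.6 kb (chr9:50565241-50565544) showed a larger change. Its accessibility was 3.80, 3.79 and 5.39 CPM in WT-LSK against 0.119, 0.391 and 0.214 for URE-LSK, while the WT-GMP libraries held 2.51, 3.13 and 2.47 CPM and those of URE-GMP 0.495, 0.607 and 0.218. The UREd/d libraries lay below all WT libraries, at a similar level in both cell types. The log2 fold changes were -4.19 ± 0.38 in LSK cells (edgeR adjusted p = 1.84e-07) and -2.58 ± 0.34 in GMP (adjusted p = 1.1e-05). The interaction of 1.61 ± 0.52 (adjusted p = 0.0455) was just inside the threshold, and leaving out single libraries ended the call in 9 of 12 fits, with values between 1.29 and 1.74 and adjusted p up to 0.14. GC offsets ended it as well (adjusted p = 0.0503).

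Around these start sites, Il18 -6.7, -2.4, -1.1 and +12.8 kb were lower in both cell types. Il18 -1.1 kb fell from 4.50 ± 0.187 to 0.726 ± 0.0493 CPM in LSK cells and from 3.93 ± 0.388 to 0.369 ± 0.202 in GMP, the largest fall of Il18 in GMP (-3.35 ± 0.29, edgeR adjusted p = 1.96e-07). Il18 -6.7 kb fell from 5.11 ± 1.38 to 0.900 ± 0.297 CPM in LSK cells and from 4.26 ± 0.403 to 0.863 ± 0.524 in GMP. The +12.8 kb region held 36 counts in WT-LSK and 5 in URE-LSK, a ratio of 0.125 with an interval of 0.0383 to 0.320, and in GMP it fell from 2.70 ± 1.12 to 0.559 ± 0.401 CPM. With abundance offsets its calls were lost in LSK cells (-1.86, edgeR adjusted p = 0.0721) and in GMP (-0.91, adjusted p = 0.095), as was the call of Il18 -2.4 kb in GMP, which went from -2.21 to -1.01 (adjusted p = 0.058).

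The outer regions of Il18 moved in other directions. Il18 +36.3 kb, its region of most counts away from a start site, held 7.53, 9.10 and 7.76 CPM in WT-LSK against 1.64, 2.01 and 2.95 in URE-LSK, but 19.1, 16.1 and 11.1 in WT-GMP against 19.6, 20.1 and 14.998 in URE-GMP. It was lower in LSK cells without overlap and overlapped in GMP, with an interaction of 2.12 ± 0.31 (edgeR adjusted p = 0.000371). Il18 -17.4 kb was the sole member with a called interaction below 0 (-1.65 ± 0.28, adjusted p = 0.001). It averaged 6.51 CPM in WT and 10.61 in UREd/d LSK cells, and 3.58 and 1.87 CPM in GMP, so that its genotype changes of 0.70 ± 0.19 and -0.95 ± 0.20 had opposite signs and neither was called. In GMP it was called without WT-GMP replicate 1 (-1.11), WT-GMP replicate 2 (-1.04) or URE-GMP replicate 2 (-1.01), and when scaled by library size (-1.07) or TMM on promoters (-1.09) or filtered at 2 CPM (-1.01), and in LSK cells it was called with GC offsets (1.17). Il18 -18.7 kb was higher in both cell types, at 1.97 against 0.676 CPM in LSK cells and 6.12 against 1.26 in GMP (2.32 ± 0.27, adjusted p = 2.86e-06). Il18 +38.3 kb was called higher in both as well, at 9.20 against 2.73 CPM in GMP. In LSK cells that call rested on 63 against 16 counts and on single libraries, since its adjusted p of 0.0425 rose to 0.0938 without WT-LSK replicate 2, to 0.18 without WT-LSK replicate 3, to 0.191 without URE-LSK replicate 3 and to 0.0535 without WT-GMP replicate 2. It was also lost with scaling by library size or by TMM on promoters, with the 2 CPM filter and with the Y chromosome term (adjusted p between 0.0614 and 0.082).

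**Figure D3:**
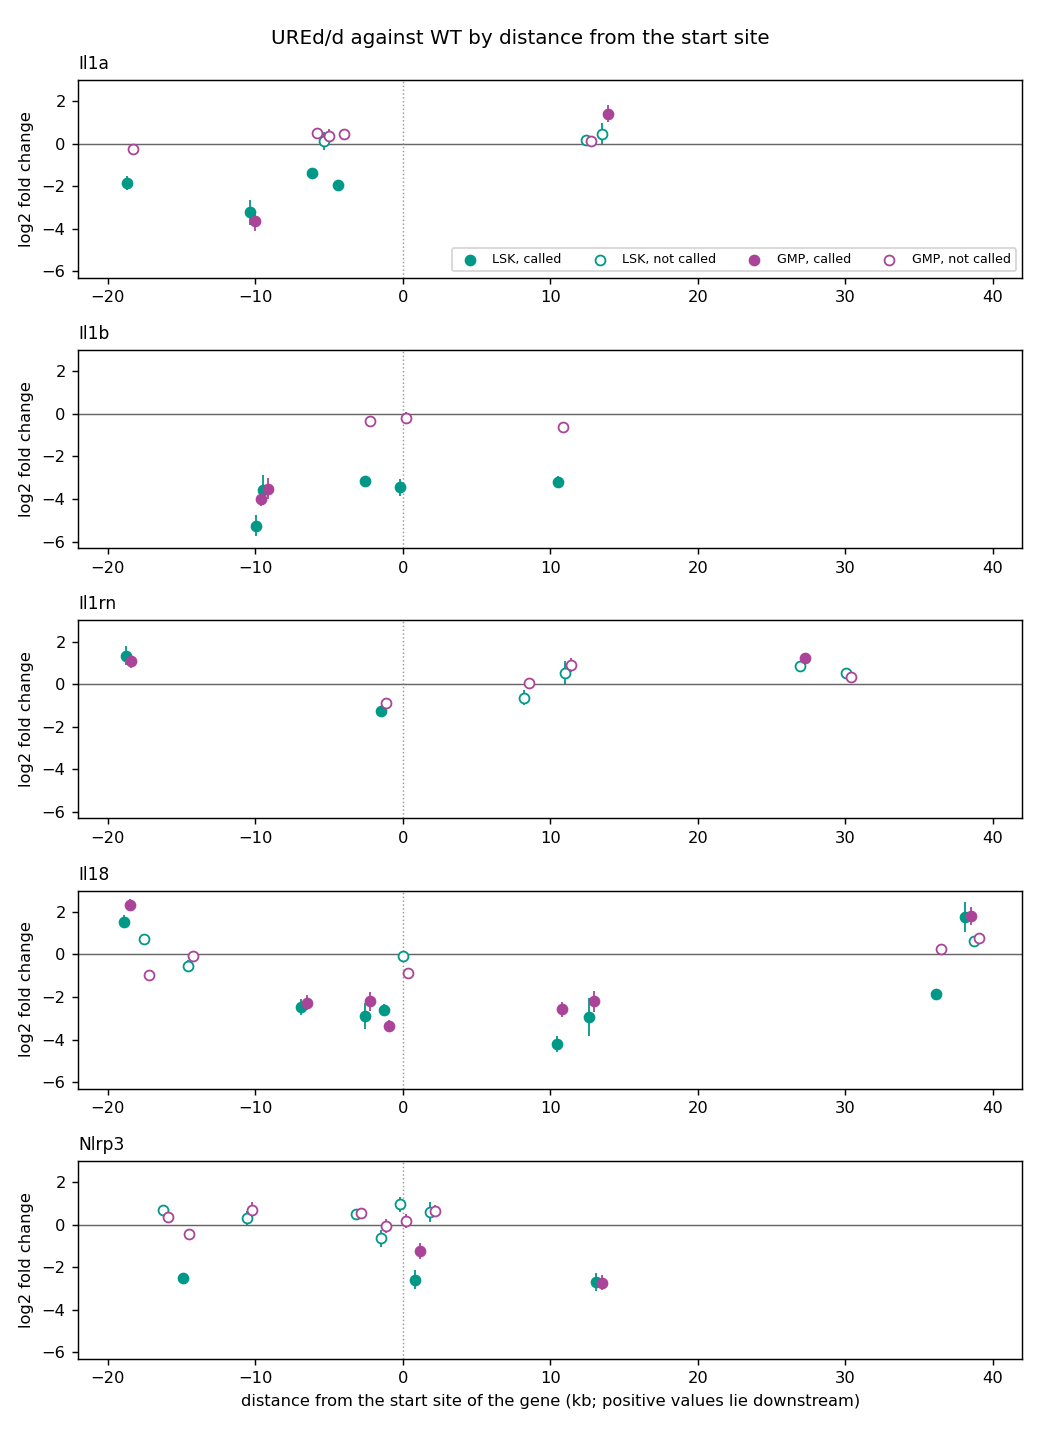
Log2 fold change of UREd/d against WT with its SE (y axis) by distance from the outermost start site (x axis, kb) for Il1a, Il1b, Il1rn, Il18 and Nlrp3, in LSK cells and GMP. Filled points are called. At Il1b the GMP values are -0.33, -0.19 and -0.62 at -2.4, 0.0 and +10.7 kb, above those of LSK cells, and at -9.3 and -9.8 kb they are called lower like those of LSK cells.

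Nlrp3 encodes the sensor whose assembly starts the best known inflammasome. Its start site and the adjoining intron differed in their response. The start-site region (chr11:59541276-59541870) held 6.48, 6.93 and 5.39 CPM in WT-LSK against 6.52, 21.6 and 8.27 for URE-LSK, while the WT-GMP libraries held 23.0, 17.1 and 13.2 CPM and those of URE-GMP 17.8, 24.6 and 17.8. URE-LSK replicate 2 stood apart from its group, and the genotypes overlapped in both cell types. The change in LSK cells was 0.95 ± 0.34 (edgeR adjusted p = 0.0254), under the fold threshold, and it was 1.25 without URE-LSK replicate 1 and 1.17 without replicate 3, where it was called. Among the fits without 1 library it also fell as low as 0.25, and the edgeR adjusted p rose as high as 0.378. GC offsets gave 1.41, also called.

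Nlrp3 +1.0 kb (chr11:59542336-59542880), at another annotated start site within an intron of the gene, was lower in both cell types. It held 5.17, 5.18 and 4.54 CPM in WT-LSK against 0.167, 1.67 and 0.705 for URE-LSK, while the WT-GMP libraries held 21.1, 16.7 and 15.1 CPM and those of URE-GMP 6.54, 10.7 and 4.92. The genotypes did not overlap in either cell type, and each genotype rose from LSK cells to GMP. The log2 fold changes were -2.58 ± 0.45 in LSK cells (edgeR adjusted p = 0.000152) and -1.25 ± 0.38 in GMP (adjusted p = 0.00987). The call in GMP was lost with GC offsets (-0.81, adjusted p = 0.0628) and with DESeq2 (-1.21, adjusted p = 0.061). The interaction of 1.33 ± 0.59 (adjusted p = 0.137) was 2.22 without URE-LSK replicate 2, the highest of its group, and was then called (adjusted p = 0.0104).

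Nlrp3 -14.7 kb (chr11:59526585-59527077) resembled Il1b -2.4 kb, with 12.7, 14.2 and 12.04 CPM in WT-LSK against 1.97, 3.21 and 1.77 for URE-LSK, while the WT-GMP libraries held 14.1, 16.1 and 14.5 CPM and those of URE-GMP 9.69, 13.8 and 9.86. The URE-LSK libraries lay below all others. The change was -2.49 ± 0.21 in LSK cells (edgeR adjusted p = 9.82e-08) and -0.42 ± 0.19 in GMP (adjusted p = 0.0695), and the interaction was 2.07 ± 0.29 (adjusted p = 0.000215). Nlrp3 +13.3 kb, in an intron, was lower by similar amounts in both cell types (-2.69 ± 0.42 and -2.73 ± 0.36), from 2.64 ± 0.186 to 0.388 ± 0.177 CPM in GMP. The other 5 Nlrp3 regions were called in neither cell type, with log2 fold changes between -0.64 and 0.70. Of these, Nlrp3 -1.3 kb was called lower in LSK cells without WT-LSK replicate 3 (-1.02) or URE-LSK replicate 2 (-1.09).

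Pycard, which encodes the adaptor ASC, and Casp1, the protease, had no call at their start sites. The Pycard start-site region (chr7:127993196-127994062) held 21.9, 23.5 and 24.9 CPM in WT-LSK against 26.7, 23.7 and 24.3 for URE-LSK, while the WT-GMP libraries held 16.3, 11.4 and 12.01 CPM and those of URE-GMP 14.5, 15.4 and 14.9. The genotypes overlapped in both cell types, with changes of 0.09 ± 0.13 and 0.18 ± 0.13, and LSK cells lay above GMP in every library. The Casp1 start-site region (chr9:5298168-5299257) held 14.4, 13.3 and 13.9 CPM in WT-LSK against 9.59, 7.23 and 8.16 for URE-LSK, while the WT-GMP libraries held 29.6, 16.2 and 15.4 CPM and those of URE-GMP 18.8, 20.5 and 17.3. The UREd/d libraries were below WT in LSK cells without overlap, yet the change of -0.73 ± 0.20 (edgeR adjusted p = 0.0057) was under the fold threshold. WT-GMP replicate 1 stood far above the other GMP libraries, and without it the value in GMP of -0.11 ± 0.20 was 0.21 and the interaction of 0.63 ± 0.28 was 1.01 (adjusted p = 0.00175), which was called.

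The remaining regions in these windows belonged mostly to neighbours. Casp1 +10.1 kb lay at the start site of Casp4, the gene of caspase-11, which begins 1.56 kb from Casp1. Its values were 16.1 ± 3.57 CPM in WT-GMP, against 24.8 ± 3.10 for URE-GMP, a change of 0.63 ± 0.16 that was called with GC offsets (1.19). Pycard -19.5 kb, at Gm19366, was the sole Pycard region called by genotype, at 0.557 against 0.223 CPM in GMP (-1.40 ± 0.46, adjusted p = 0.0157), and the call was lost without WT-GMP replicate 2 (0.0638) or, likewise, without URE-GMP replicate 2 (0.0765). It was also lost with abundance offsets (-0.31, adjusted p = 0.601) and with GC offsets, alone (-0.94, adjusted p = 0.0928) and with the replicate block (-0.92, adjusted p = 0.117). Without the 9 regions at start sites of other genes, 18 of 38 members (47.4%) were lower and 3 (7.89%) higher in LSK cells. In GMP 10 (26.3%) were lower and 5 (13.2%) higher. Of all regions, start sites included, 23.9% were lower and 13.6% higher in LSK cells and 24.1% and 15.6% in GMP. The shares in GMP were thus near those of all regions. Regions at annotated start sites were called lower less often, 7.68% in LSK cells and 8.25% in GMP.

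**Figure D4:**
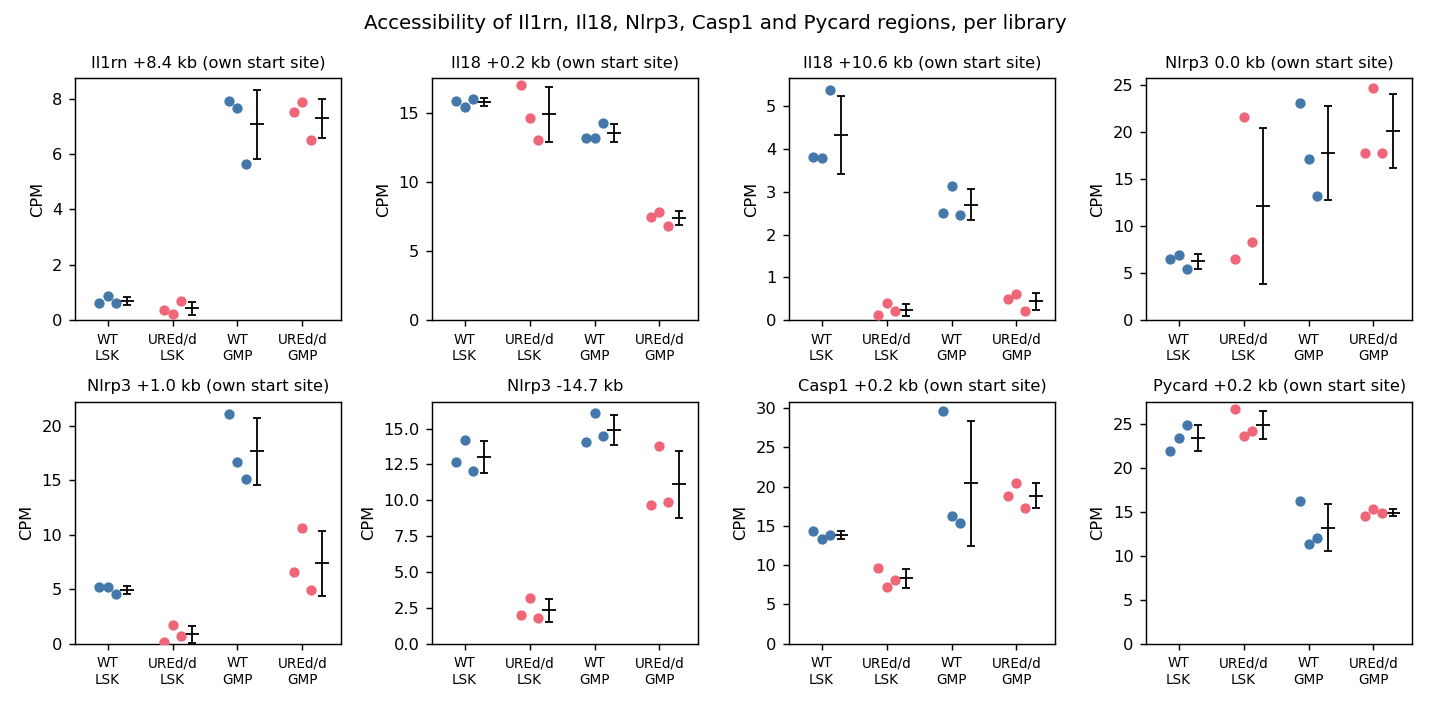
Accessibility in CPM (y axis, from 0) of 8 regions of Il1rn, Il18, Nlrp3, Casp1 and Pycard in each of the 12 libraries (points), with the mean and SD of 3 libraries beside them, WT in blue and UREd/d in red. The genotypes are apart in both cell types at Il18 +10.6 kb and Nlrp3 +1.0 kb and overlap in both at Il1rn +8.4 kb, Nlrp3 0.0 kb and Pycard +0.2 kb.

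The step from LSK cells to GMP was compared within each genotype. In WT mice 22 of the 47 regions (46.8%) were higher in GMP and 2 (4.26%) were lower, against 21% and 16.8% of all regions. In UREd/d mice 28 (59.6%) were higher and 3 (6.38%) were lower, against 27.6% and 21.6%. The median log2 difference of the members was 0.86 in WT and 1.54 in UREd/d mice, and that of all regions was -0.01 and 0.03. These comparisons share their libraries with those of the genotypes, so that low values in URE-LSK enter both. At Il1b, 4 of 5 regions were higher in GMP than in LSK cells of WT mice and all 5 were in UREd/d mice, the exception in WT being the -2.4 kb region, which was as open in WT-LSK as in WT-GMP. At Il1a 5 of 7 and at Nlrp3 6 of 9 regions were higher in GMP of WT mice. The 2 members lower in GMP of WT mice were Nlrp3 -10.4 kb and Pycard -19.5 kb.

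The interaction was called above 0 in 9 of the 47 regions (19.1%) and below 0 in 1 (2.13%), against 8.96% and 5.03% of all regions. The 9 were 3 regions each of Il1a (with -6.0 kb at a start site of Gm25703) and Il1b, Il18 +10.6 and +36.3 kb and Nlrp3 -14.7 kb. In each of them the genotype change lay lower in LSK cells than in GMP. No region of Il1rn, Casp1 or Pycard was among them.

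Markers of other cell types were read at or near their start sites beside these values. The summed CPM of 7 late neutrophil markers was 18.7 to 20.99 in the WT and 10.49 to 14.2 in the UREd/d libraries of LSK cells, and 59.8 to 87.6 and 124.9 to 143.9 in those of GMP, with 3 of the 7 called higher in URE-GMP and 2 higher and 2 lower in URE-LSK. Of 7 monocyte progenitor markers, 4 were lower in URE-LSK (Csf1r, Ly86, F13a1 and Ms4a6c) and 3 in URE-GMP, and their summed CPM was 102 to 119 in WT-GMP, against 74.4 to 91.1 for URE-GMP, and 74.2 to 81.1 in WT-LSK, against 73.5 to 86.5 for URE-LSK. The summed CPM of the basophil and mast cell markers Mcpt8 and Cpa3 was 7.38 to 11.4 in the WT and 23.8 to 30.6 in the UREd/d libraries of LSK cells, and 9.90 to 13.1 and 24.8 to 34.5 in those of GMP. Of 3 erythroid markers with a region, Gata1 was lower in both cell types, and of 3 megakaryocyte markers Pf4 was lower in URE-GMP. Of the lymphoid markers reported here, Cd79a and Cd4 were lower in both cell types. The part of these shifts in the values of the 7 genes was not tested.

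Motif content was compared with that of all regions as a description. A CEBP match was held by 16 of the 47 members (34.0%) and by 20.5% of all regions, a RUNX match by 10 (21.3%) and 17.3%, a PU.1 match by 8 (17.02%) and 10.5%, an AP-1 match by 8 (17.02%) and 15.1%, a PU.1/IRF match by 5 (10.6%) and 13.6%, an NF-kB match by 3 (6.38%) and 1.45%, and a match to the ETS motif CCGGAAGT by 1 (2.13%) and 1.88%. The members were 365 bp long in the median and all regions 322 bp, with a median GC content of 47.2% and 49.8%. By class, the PU.1 match was held by 3 of the 10 regions that fell in LSK cells and GMP alike, by 3 of the 9 lower in LSK cells only and by 2 of the other 28. The CEBP match was held by 2, 5 and 9 of them. The 3 NF-kB matches all lay in regions lower in both cell types, in the printed Il1b -9.8 kb, Il1a -10.2 kb and Il18 -6.7 kb sequences. The absence of a match says only that these letters were not in the region.

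The genes whose start-site regions varied most like those of the members were found by Pearson's r over the 12 libraries among 14179 genes, on the log2 scale. These values describe libraries that share their groups, and they carry no test. For the Il1b start site they were Rab7b (r = 0.991) and C5ar2 (r = 0.985), and Rab7b averaged 3.22 and 0.414 CPM in WT and UREd/d LSK cells and 12.7 and 9.63 CPM in GMP. For Il1rn +8.4 kb they were Tnfsf13b and Ffar4 (r = 0.993 for each). For Il18 +0.2 kb they were Nr5a2 (r = 0.981) and Fzd2 (r = 0.977), for Casp1 Arl8a (r = 0.969) and Egln3 (r = 0.965), for Pycard Xrcc5 (r = 0.986) and Mrgpre (r = 0.979), and for Nlrp3 Klhdc2 (r = 0.911) and Atg14 (r = 0.907). Only the most alike pair of genes was kept for each member, so unlike pairs do not show that the members followed different sets of genes. The likeness was lowest at Nlrp3.

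Of 42 other genes of the pathway, 40 had a region within 20 kb, 350 regions in all once the members were left out. In LSK cells 102 (29.1%) were lower in UREd/d mice and 33 (9.43%) higher, and in GMP 95 (27.1%) were lower and 43 (12.3%) higher, against 23.9% lower and 13.6% higher of all regions in LSK cells and 24.1% and 15.6% in GMP. The lower share in GMP was thus near that of all regions. With GC offsets these became 84 lower and 61 higher in LSK cells and 77 and 70 in GMP, and with abundance offsets 86 and 59, and 78 and 62. Over all regions, GC offsets made 26621 of 51411 calls higher in LSK cells and 26504 of 50691 in GMP. Abundance offsets made 25686 of 48893 and 26082 of 47822 higher. The pathway counts thus moved in the direction of the whole table. Of the 34 genes with a region at a start site, 3 (8.82%) were lower in URE-LSK and none was higher, and 7 (20.6%) were lower and 2 (5.88%) higher in URE-GMP. Among all regions at an annotated start site, 7.68% were lower and 3.83% higher in URE-LSK, and 8.25% and 4.79% in URE-GMP, so that the share in LSK cells was near this background. By role, the sensors had the largest share of lower regions, 29 of 75 in LSK cells (38.7%) and 31 of 75 in GMP (41.3%), of which Aim2, a sensor of cytosolic DNA, gave 12 in each. Signalling genes such as Myd88, Irak1, Irak4 and Traf6 had no called start site in either cell type, and of their 85 regions 25 (29.4%) were lower in LSK cells and 18 (21.2%) in GMP.

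Among the receptors, the start site of Il1r2, the decoy receptor that binds IL-1 without signalling, averaged 12.9 CPM in WT and 1.71 in UREd/d LSK cells, and 7.33 and 4.87 CPM in GMP. It was lower in URE-LSK (-2.92 ± 0.23 on the log2 scale, edgeR adjusted p = 3.76e-08), and the change in GMP of -0.59 ± 0.21 was not called. The interaction was 2.33 ± 0.30 (adjusted p = 0.000139). Il1r1, the signalling receptor, averaged 23.1 and 24.6 CPM in LSK cells and 12.7 and 16.2 CPM in GMP and was not called by genotype. Among the sensors, Nlrc4 averaged 4.21 CPM in WT and 0.835 in UREd/d LSK cells, and 13.5 and 7.39 CPM in GMP, lower in URE-LSK (-2.32 ± 0.22, edgeR adjusted p = 2.99e-07) and with an interaction of 1.46 ± 0.29 (adjusted p = 0.00299). Nlrp1a, Nlrp1b, Nlrp6, Naip6 and Mefv, sensors of other inflammasomes, were lower at their start sites in URE-GMP. The log2 fold changes were -1.24, -1.45, -1.38, -1.11 and -1.59. In LSK cells these sensors were not called, with changes of -0.92, -0.88, -0.96, -0.54 and -0.90 in the same order. Their interactions were not called either, so a loss particular to GMP was not shown. P2rx7, the ATP receptor that acts upstream of NLRP3, was also lower in URE-GMP (-1.11 ± 0.11, edgeR adjusted p = 4.71e-07). Its change in LSK cells of -0.20 was not called. At Nlrp6 the genotypes overlapped at low values, with 0.502, 1.22 and 2.40 CPM in WT-GMP against 0.732, 0.416 and 0.485 in URE-GMP. Il33, another cytokine of the family, was lower in both cell types (-1.86 ± 0.35 and -1.11 ± 0.40), and Nlrp12 (1.19 ± 0.37) and Il36g (1.09 ± 0.44) were higher in URE-GMP. The Il33 region was low in GMP, at 0.519 CPM on average in WT and 0.228 in UREd/d libraries.

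**Figure D5:**
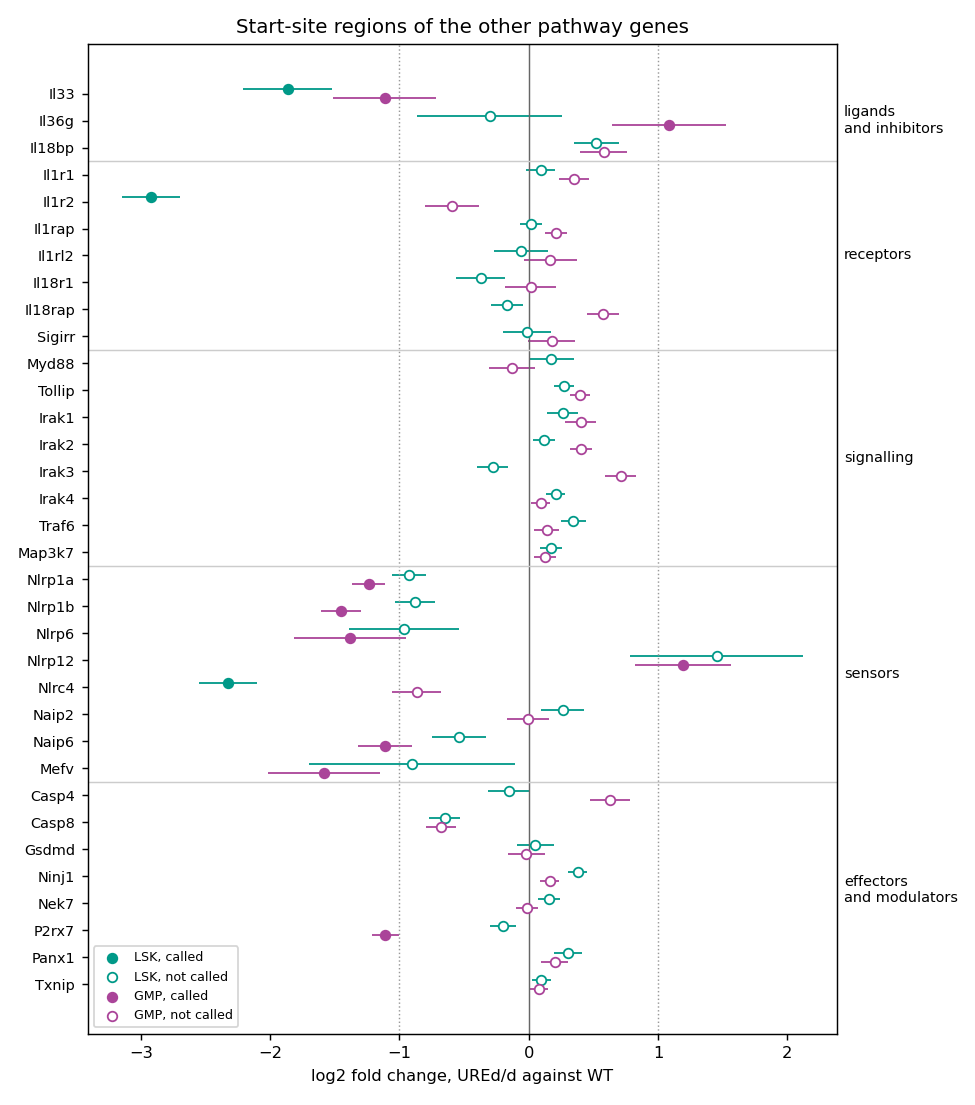
Log2 fold change of UREd/d against WT with its SE (x axis) at the start-site regions of 34 other pathway genes, ordered by role, in LSK cells and GMP. Filled points are called, and dotted lines mark a log2 fold change of 1 in either direction. The start sites of Il1r2 and Nlrc4 are called lower in LSK cells, those of 5 sensors and of P2rx7 in GMP and that of Il33 in both. Nlrp12 and Il36g are called higher in GMP, and no signalling gene is called. A call in one cell type alone does not show a difference between them.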

How the data were processed

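Open chromatin was measured by ATAC-seq (OmniATAC protocol, KAPA HiFi polymerase) in LSK cells and GMP of WT and UREd/d mice, with 12 libraries in 4 groups taken from the labels. Per the study's methods, the authors aligned reads to GRCm38 with bowtie2, removed duplicates and non-primary chromosomes and called peaks per group with Genrich. The submitters' processing notes also name cutadapt, bedtools and featureCounts, with no versions. The deposited values were raw counts per merged region and library, and no columns were left out. Region starts were taken as 0-based and 1 was added. Whether read pairs or read ends were counted is not given in the sources used here.

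All 121336 regions passed filterByExpr. Counts were scaled by TMM and tested with edgeR 4.0.16 (R 4.3.3, limma 3.58.1) by the quasi-likelihood test, with 1 coefficient per group over all 12 libraries and Benjamini-Hochberg adjustment across the whole table. Calls required an adjusted p under 0.05 and a log2 fold change beyond 1 in size. The script was tested on simulated data. The replicates were mice per the study's methods. Intervals of count ratios are exact (Clopper-Pearson) 95% intervals and, like the limit of 3 counts, cover counting error only, since reads without molecular identifiers are not independent molecules. Genes came from GENCODE M21 basic.

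The members and gene lists were chosen with earlier results of these data known. Named regions were those at a member's own start sites, the region of most counts otherwise in each window, the smallest genotype p per gene, and the smallest p of the interaction and of the WT step. Other regions were chosen after their values were seen. Alternatives covered scaling (RLE, library size, abundance and GC offsets, TMM on promoters), DESeq2 1.42.0, the call rule, filter, window, samples in the fit, a replicate block and each library left out. The Y chromosome term was added after seeing the data. Same-numbered libraries of WT LSK cells and GMP deviated together (r = 0.181, 0.191 and 0.207). For GMP between genotypes r was 0.0997, 0.205 and 0.349, and between the UREd/d cell types it was 0.062, 0.273 and 0.113. For LSK cells between genotypes r was 0.102, 0.063 and -0.062. The main fit treated all libraries as independent. The result for a lymphoid marker is not reported here.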

Additional observations from a re-analysis of the deposited data

Results flagged for a closer look

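The following regions were marked because the genotype effect differed between LSK cells and GMP by the interaction test (edgeR quasi-likelihood, Benjamini-Hochberg adjusted). The log2 interaction, that is, the log2 fold change of GMP less the one of LSK cells, was 3.26 at the Il1b start site, 2.81 at Il1b -2.4 kb and 2.57 at Il1b +10.7 kb. At Il1a it was 2.36 for -4.2 kb, 1.89 for -6.0 kb (at a start site of Gm25703) and 1.58 for -18.5 kb. The value of 2.07 at Nlrp3 -14.7 kb and that of 2.12 at Il18 +36.3 kb were called without each library in turn. At Il18 +10.6 kb it was 1.61, a call that was lost in 9 of 12 fits without 1 library. Il18 -17.4 kb had the opposite sign, at -1.65. Among the other pathway genes it was 2.33 at the start site of the decoy receptor Il1r2 and 1.46 at that of the sensor Nlrc4. At Il1a -4.2 and -6.0 kb the UREd/d libraries lay below WT in LSK cells and above WT in GMP. No explanation was tested.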

How the results depend on the processing

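Of 48 named region values, 523 of 566 under other settings and 563 of 576 without 1 library kept their direction and their side of the threshold. Among the members called, 17 of 22 in LSK cells, 11 of 16 in GMP and 8 of 10 interactions were called in every fit with another scaling, filter, tool or set of samples and without each library, wherever the region was tested, and no call changed sign. With the stricter call rules included, these were 17, 9 and 7. Calls without 1 library numbered 21 to 23 in LSK cells, 15 to 19 in GMP, 22 to 27 and 29 to 32 for the step to GMP in WT and UREd/d mice, 8 to 11 for the interaction, and 129 to 138 and 133 to 143 for the other pathway regions in LSK cells and GMP. The replicate block gave 22, 16, 24, 31 and 10 member calls and 136 and 138 pathway calls. Between genotypes, and between the UREd/d cell types, not every same-numbered pair passed a correlation of 0.1, so their numbers were not taken as pairs.

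In the order LSK cells, GMP, WT step, UREd/d step and interaction, the gene body alone left 5, 4, 8, 9 and 2 calls and an extension of 5 kb left 11, 7, 14, 18 and 5, since fewer regions were counted. A mean of at least 2 CPM left 14, 9, 12 and 19 for the first 4 and 84 and 75 pathway calls, since fewer regions were tested. Without the fold threshold the GMP calls were 29 and the pathway calls 203 and 227. With glmTreat the WT step had 15.

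Signs turned only at values that were not called. With GC offsets, alone and with the replicate block, LSK values became 0.33 and 0.32 at Il18 +0.2 kb and 0.41 and 0.39 at Casp1 +10.1 kb, and GMP values became 0.22 and 0.22 at the Il1b start site, 0.13 and 0.12 at Il1b -2.4 kb, 0.39 and 0.44 at Casp1 +0.2 kb and 0.41 and 0.41 at Pycard +2.0 kb. Abundance offsets gave -0.0934 at Il1a +12.6 kb and -0.0408 at Pycard +0.2 kb in LSK cells, and -0.101 at Il1a +12.6 kb, 0.40 at the Il1b start site and 0.0164 at Pycard +2.0 kb in GMP. TMM on promoters gave -0.0152 at Il1a +12.6 kb and -0.0933 at Pycard +0.2 kb in LSK cells, and -0.0163 at Il1a +12.6 kb and -0.0866 at Il1rn +8.4 kb in GMP. Library size alone gave -0.0333 at Pycard +0.2 kb in LSK cells, and -0.00052 at Il1a +12.6 kb and -0.0681 at Il1rn +8.4 kb in GMP. The 2 CPM filter gave -0.0577 at Pycard +0.2 kb in LSK cells and -0.0151 at Il1rn +8.4 kb in GMP, and RLE and DESeq2 gave 0.0372 and 0.0356 at Pycard +2.0 kb in GMP. Without 1 library, values ran from -0.19 to 0.00336 at Il18 +0.2 kb and from -0.0206 to 0.12 at Pycard +0.2 kb in LSK cells, and from -0.0818 to 0.13 at Il1rn +8.4 kb, -0.25 to 0.21 at Casp1 +0.2 kb and -0.12 to 0.0908 at Pycard +2.0 kb in GMP. The cause was not tested. In LSK cells, each UREd/d library held 10 counts or fewer at 7 members and each WT library at 3 others, which limits the precision of their ratios.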
